A study of Mus musculus with 7 samples.

Results

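The 10 genes Cd34, Sdc3, Sdc4, Vcam1, Itga7, Met, Cxcr4, Calcr, Fgfr4 and Spry1, which mark muscle satellite cells at their surface or, for Spry1, act as a brake on their activation, were followed in myoblasts with and without Hmga2. They were taken by name, together with every array probe set that the platform table pairs with 1 of them alone. This gave 10 of 18193 measured genes and 20 of 34945 probe sets. The samples were myoblasts of C57BL/6 mice on Affymetrix Mouse Genome arrays, and the design compared 3 wild type samples, all female, with 4 samples of Hmga2 -/- mice (Hmga2 KO), with 2 males (replicates 1 and 3) and 2 females (replicates 2 and 4). The labels record no treatment. The sources used here do not give the age of the mice, the muscle, how the cells were isolated and cultured, or the kind of Hmga2 allele. The samples are labelled biological replicates, and p-values measure the spread between these 7 samples.

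Satellite cells are the stem cells of skeletal muscle. They rest beneath the basal lamina of the fibre, leave quiescence after injury, divide as myoblasts and fuse into new fibres, while some return to rest. Met is the receptor of hepatocyte growth factor, an activating signal, and Fgfr4 and the syndecans Sdc3 and Sdc4 take part in fibroblast growth factor (FGF) signalling. Spry1, an inhibitor of receptor tyrosine kinase signalling, and Calcr, the calcitonin receptor, are known for their part in quiescence. Cxcr4 is the receptor of the chemokine Cxcl12, Itga7 a laminin-binding integrin chain, Vcam1 an adhesion molecule bound by the integrin of Itga4 and Itgb1, and Cd34 a sialomucin that blood progenitors and endothelium also carry.

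Values are array intensities on a linear scale, and differences are Hmga2 KO minus wild type in log2(intensity + 1). Background was read from 9 probe sets of Y-linked genes in the 5 female samples, which gave 33.9 to 58.2 in single samples. A gene is called above background here where its mean log2 value over the 7 samples exceeds 5.70 (an intensity of 50.9), the highest mean of those probe sets. These probe sets also matched the labelled sex of all 7 samples. Hmga2 itself, on its brightest probe set, gave 9998 to 12800 in wild type and 85.7 to 105 in Hmga2 KO. The myoblast markers Pax7, Myod1, Myog, Des, Cdh15 and Myf5 were above background in all samples, with 5188 to 6765 for Pax7 and 13699 to 21079 for Myog, the regulator that starts differentiation. Of the endothelial markers, Pecam1 gave 65.9 to 84.3, while the brightest, Erg and Egfl7, gave 284 to 448 and 206 to 332. Of the leukocyte markers, Ptprc gave 58.5 to 74.7, and the brightest, Tyrobp and Csf1r, gave 116 to 168 and 109 to 141. Of all samples, wild type replicate 2 showed the most signal at the 3' end of the Actb control relative to its 5' end, with a ratio of 1.94 against 1.61 to 1.74. Bulk RNA cannot tell fewer cells of a type from less RNA per cell.

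None of the 10 genes differed between the genotypes past the adjusted threshold of 0.05 (limma, Benjamini-Hochberg over all 18193 genes), and their adjusted p ran from 0.259 for Spry1 to 0.951 for Cxcr4. Of all genes, 0.0275% passed. Without adjustment, 2 of the 10, Spry1 and Vcam1, had a p under 0.05, both lower in Hmga2 KO, against 13.3% of all genes, or 10.3% lower and 2.99% higher. For the same 2 genes the groups did not overlap, against 11.7% of all genes, or 9.29% on the lower side. On their brightest probe sets 8 genes lay lower and 2 higher, with a median difference of -0.13 where all genes had -0.07. In a fit of all 34945 probe sets, 0 of the 20 passed (smallest adjusted p = 0.284, limma), where 0.02% of all did. An unadjusted p under 0.05, and groups without overlap, were found for 2 of the 20, the brightest probe sets of Spry1 and Vcam1. Among all probe sets 12.2% had such a p (8.84% lower) and 10.9% had no overlap (8.4% lower). These unadjusted counts moved up or down when single samples were left out. The shares of all genes and probe sets in those fits are not given, so those counts are left out as well. In females alone 1 gene, Spry1, had an unadjusted p under 0.05, against 6.85% of all genes. Of the genes, 9 were above background, and Calcr was not. At least 16954 of all 18193 genes also lay above it, as did all 10 endothelial and all 9 leukocyte markers measured. A place above background thus does not by itself show expression.

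**Figure D1:**
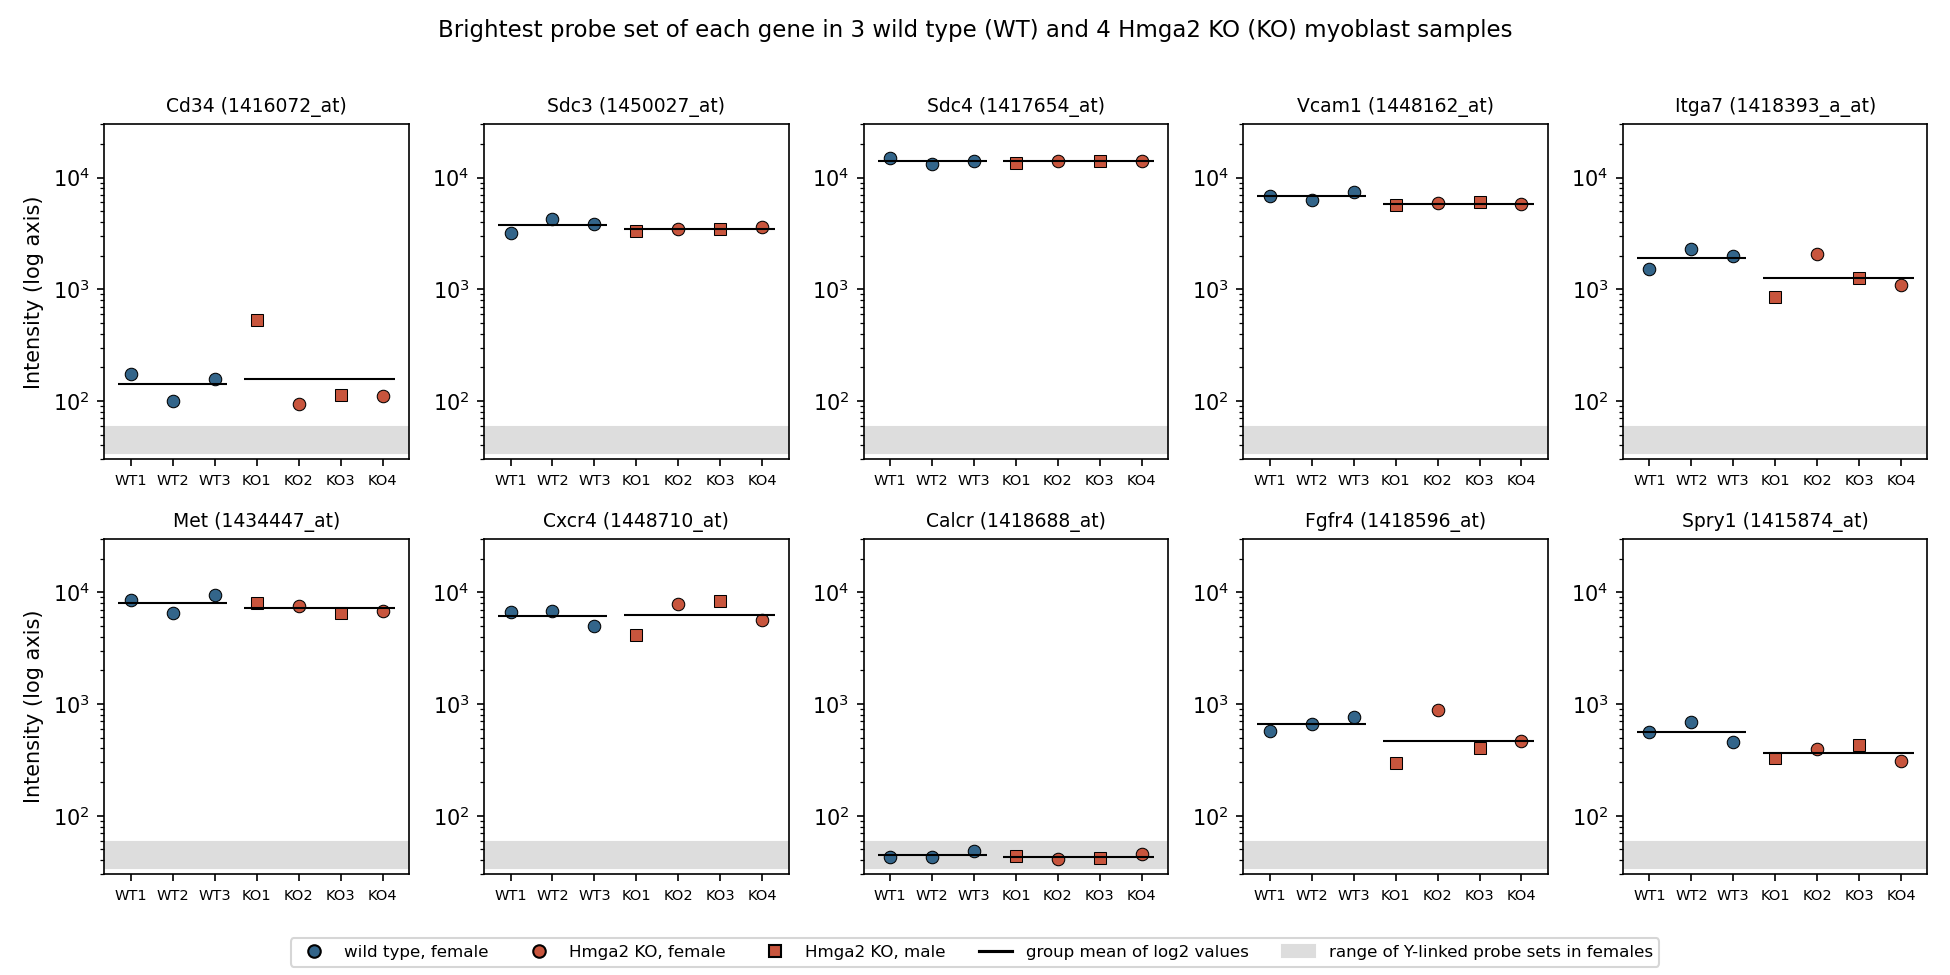
Intensity (log axis) of the brightest probe set of each of the 10 genes in wild type samples 1 to 3 (WT) and Hmga2 KO samples 1 to 4 (KO); circles are female and squares male, lines are group means of the log2 values, and the grey band is the range of Y-linked probe sets in females. Spry1 and Vcam1 lie lower in every Hmga2 KO sample than in any wild type sample, Calcr lies in the band, and levels of different genes are not comparable, since probes differ in brightness.

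**Figure D2:**
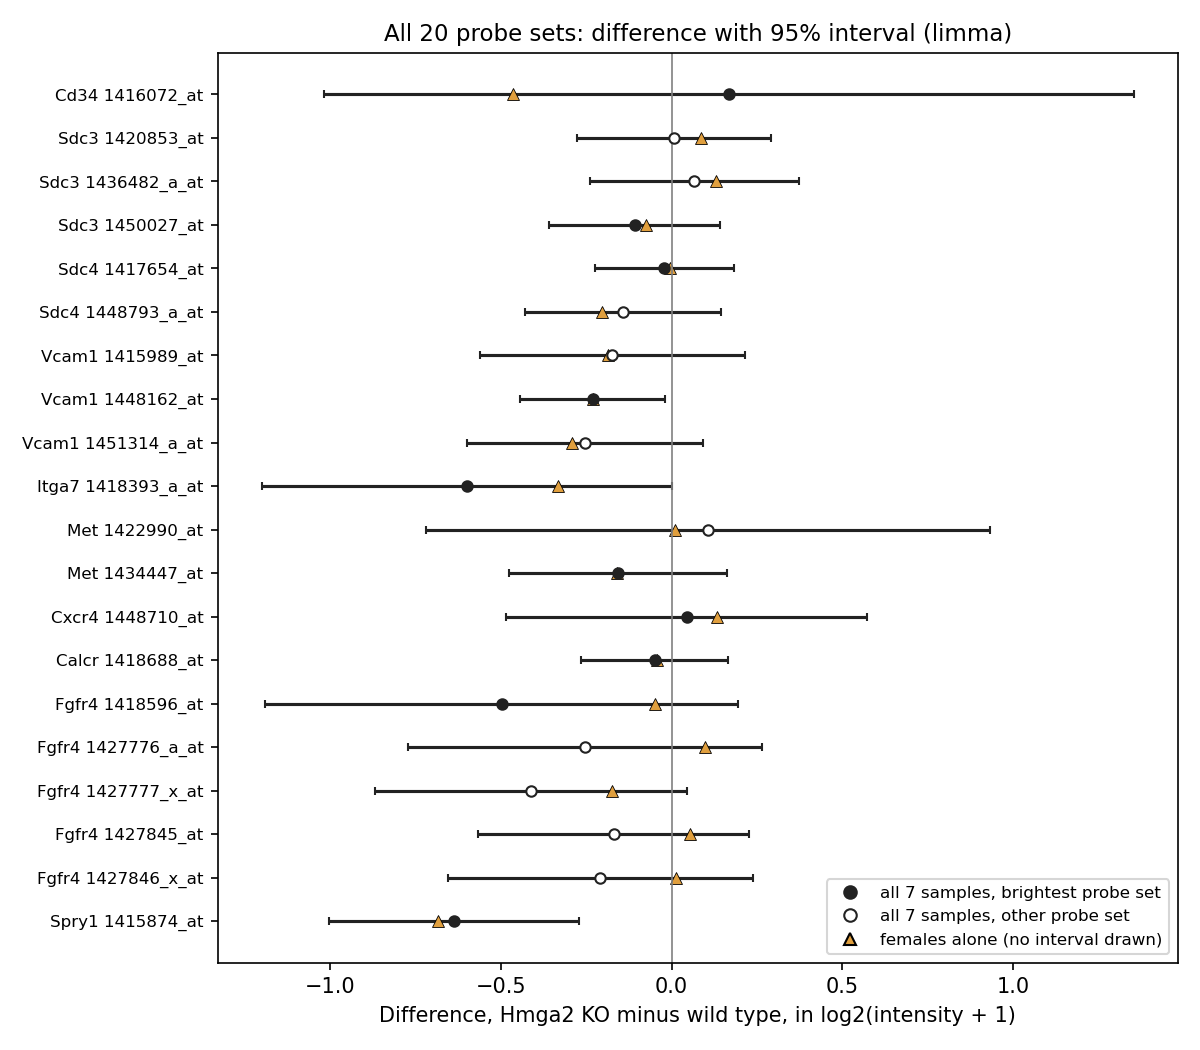
Difference between Hmga2 KO and wild type in log2(intensity + 1) for all 20 probe sets, with the 95% interval from limma over all 7 samples (circles, filled for the brightest probe set of a gene) and the difference in females alone (triangles). Only the intervals of Spry1 and of 1 of the 3 Vcam1 probe sets lie below 0, before adjustment for the number of probe sets, and in females alone the brightest Fgfr4 probe set lies near 0 (-0.048) and another at -0.17.

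Spry1, which limits signalling from FGF and other receptor tyrosine kinases, stood lowest among the 10. Its single probe set gave 567, 688 and 459 in wild type replicates 1 to 3, and 327, 395, 429 and 310 in Hmga2 KO replicates 1 to 4. All 4 Hmga2 KO samples lay below the lowest wild type sample. Wild type had a mean log2 value of 9.14 ± 0.29 (SD, n = 3) and Hmga2 KO one of 8.50 ± 0.22 (SD, n = 4), which differ by -0.64 (SE 0.164, 95% interval -1.01 to -0.27), or 1.56-fold. This did not pass over all genes (adjusted p = 0.259, limma), and an exact permutation test gave a two-sided p of 0.0286, the lowest value possible with 3 against 4 samples. Males and females of the Hmga2 KO group lay close together, at 8.55 and 8.46, so that females alone differed by -0.69 (adjusted p = 0.547, limma). Over 16 alternative settings the difference ranged from -0.78 to -0.49, with an unadjusted p under 0.05 in all 16 and an adjusted p of 0.162 to 0.585. The largest and the smallest of these came from leaving out wild type replicates 3 and 2.

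Fgfr4, an FGF receptor that myoblasts express, varied more among the Hmga2 KO samples than between the genotypes. Its brightest probe set gave 576, 665 and 763 in wild type and 295, 885, 400 and 465 in Hmga2 KO. Hmga2 KO replicate 2 lay above every wild type sample and the other 3 below every one. The mean log2 values were 9.38 ± 0.20 (SD, n = 3) and 8.88 ± 0.67 (SD, n = 4), with a difference of -0.50 (95% interval -1.21 to 0.21, adjusted p = 0.505, limma). The difference was -0.048 in females alone and -0.80 without Hmga2 KO replicate 2 (adjusted p = 0.138, limma). The other 4 probe sets differed by -0.41 to -0.17. They followed the brightest one over the 7 samples, with Pearson's r of 0.87 to 0.98. Their names end in _a_at, _x_at or _at, and those ending in _x_at can hold probes that match other transcripts.

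The bases upstream of Spry1 and Fgfr4 are shown because Spry1 had the smallest p and Fgfr4 varied together with muscle genes, as given further on. Each is the window of 250 bases before the start site from RefSeq (GRCm38.p6), 5' to 3' on the plus strand, chr3:37639697-37639946 for Spry1 and chr13:55152568-55152817 for Fgfr4. Capitals mark the E-box, CANNTG, the motif that myogenic factors such as Myod1 bind. The pattern reads the same on both strands, though the single sites shown do not.
Spry1: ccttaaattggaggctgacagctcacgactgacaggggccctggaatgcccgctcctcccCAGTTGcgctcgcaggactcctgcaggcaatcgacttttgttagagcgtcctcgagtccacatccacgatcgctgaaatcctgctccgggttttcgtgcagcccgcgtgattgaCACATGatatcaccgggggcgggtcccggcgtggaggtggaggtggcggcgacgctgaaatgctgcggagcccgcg
Fgfr4: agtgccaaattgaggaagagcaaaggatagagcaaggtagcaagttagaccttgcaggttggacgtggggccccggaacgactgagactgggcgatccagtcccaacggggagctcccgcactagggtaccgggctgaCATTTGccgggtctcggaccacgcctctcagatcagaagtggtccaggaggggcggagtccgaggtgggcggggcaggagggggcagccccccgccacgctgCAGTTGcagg
Spry1 holds CAGTTG starting 190 bases and CACATG starting 76 bases before the start site, and Fgfr4 holds CATTTG at 112 and CAGTTG at 10 bases. Of 9 windows found for 8 of the 10 genes, 4 held an E-box, against 66.2% of 32851 windows of the same length. These 4 were those of Spry1, Fgfr4 and Met and 1 of the 2 Calcr windows. No window was found for Itga7, which also varied together with muscle genes, or for Vcam1. Hmga2 binds AT-rich DNA through its AT-hooks. The share of A and T was 37.6% for Spry1 and 36% for Fgfr4, within 23.6% to 54% for the 9 windows, and the median over all windows was 47.6%. A match is a description of letters and no sign of binding.

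Met was bright in both groups. Its brighter probe set gave 8572, 6467 and 9388 in wild type and 7995, 7617, 6542 and 6800 in Hmga2 KO. The groups overlapped, and the difference was -0.16 (95% interval -0.48 to 0.16, adjusted p = 0.643, limma). The dimmer probe set gave 1003, 274 and 736 in wild type against 538 to 780 in Hmga2 KO. Wild type replicate 2 is low on both probe sets, and it is the sample with the highest 3' to 5' ratio, whose part in this was not tested. Without it the dimmer probe set differed by -0.44 in place of 0.11 (adjusted p = 0.428, limma), and the brighter one by -0.31 (adjusted p = 0.392, limma).

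Cxcr4 gave 6602, 6795 and 5041 in wild type and 4148, 7897, 8425 and 5641 in Hmga2 KO. The Hmga2 KO samples lay on both sides of the wild type range, and the means differed by 0.044 (95% interval -0.50 to 0.59, adjusted p = 0.951, limma). Without Hmga2 KO replicate 1, the lowest, the difference was 0.24. Calcr was listed at 40.9 to 48.6 in all 7 samples, inside the range of the Y-linked probe sets in females. These samples therefore give no measure of a genotype difference for this quiescence marker. Its partners lay above background. Ramp1 and Ramp2 were dim, though, near the leukocyte markers Csf1r (109 to 141) and Lyz2 (66.8 to 87.3). Ramp1, Ramp2 and Ramp3 encode accessory proteins that set the ligand preference of the calcitonin receptor and of Calcrl. Ramp1 gave 116 to 146 in wild type and 96.1 to 106 in Hmga2 KO, without overlap (difference -0.33, adjusted p = 0.293, limma). Ramp2 gave 98.4 to 106 and 67.4 to 93.9, also without overlap (-0.33, adjusted p = 0.314, limma). Ramp3 went the other way, with 107 to 186 and 166 to 270 (0.58, adjusted p = 0.335, limma), and its groups overlapped.

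The syndecans carry heparan sulfate chains and act as co-receptors for FGF and hepatocyte growth factor. Sdc4 varied little across the samples, with 13212 to 15112 in wild type and 13482 to 14174 in Hmga2 KO. The difference was -0.021 (95% interval -0.22 to 0.18, adjusted p = 0.933, limma), and it turned to 0.025 under quantile normalization. Its dimmer probe set differed by -0.14. Sdc3 gave 3211, 4243 and 3825 against 3331, 3471, 3445 and 3614, a difference of -0.11 (95% interval -0.36 to 0.14, adjusted p = 0.686, limma). Both dimmer Sdc3 probe sets lay slightly the other way, at 0.0079 and 0.067, and correlated weakly with the brightest one.

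Vcam1 was lower in Hmga2 KO by a small step, free of overlap only on its brightest probe set. Its brightest probe set gave 6847, 6318 and 7472 in wild type and 5675, 5908, 6025 and 5783 in Hmga2 KO. The groups did not overlap, and the Hmga2 KO samples were the tighter ones, with 12.51 ± 0.037 (SD, n = 4) against 12.74 ± 0.12 (SD, n = 3) on the log2 scale. The difference was -0.23 (SE 0.0917, 95% interval -0.44 to -0.024, adjusted p = 0.339, limma), or 1.17-fold, and the two-sided p of an exact permutation test was 0.0286. Females alone differed by the same -0.23 (adjusted p = 0.759, limma). The other 2 probe sets lay in the same direction, at -0.17 and -0.25, with overlapping groups. On both, wild type replicate 2 was the lowest of all 7 samples, at 1146 and 538 against 1337 to 1534 and 545 to 657 in Hmga2 KO. That sample has the highest 3' to 5' ratio, whose part in this was not tested. Without it these 2 probe sets differed by -0.41 and -0.44, neither past the adjusted threshold. Over 16 alternatives the difference stayed between -0.29 and -0.17, and 6 of them had an unadjusted p under 0.05.

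Itga7, which pairs with Itgb1 to hold the cell to laminin and is also a protein of differentiated muscle, gave 1504, 2291 and 1971 in wild type. The Hmga2 KO samples gave 859, 2066, 1255 and 1094. Of these, 3 lay below every wild type sample, and replicate 2 lay within the wild type range. The difference was -0.60 (SE 0.272, 95% interval -1.21 to 0.016, adjusted p = 0.385, limma), or 1.52-fold, with an exact two-sided permutation p of 0.171. In females alone it was -0.33 (adjusted p = 0.828, limma), and without Hmga2 KO replicate 2 it was -0.84 (adjusted p = 0.138, limma).

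Cd34 was set apart by 1 sample. Wild type gave 174, 101 and 159, and Hmga2 KO gave 527, 93.8, 114 and 110. Hmga2 KO replicate 1, a male, was the highest of all 7 samples, while the other 3 lay near the lowest wild type value. The difference was 0.17 over all samples (95% interval -1.05 to 1.39, adjusted p = 0.911, limma), -0.41 without that replicate (adjusted p = 0.475, limma) and -0.46 in females alone (adjusted p = 0.729, limma). Other cells that carry Cd34 were checked by their markers. In that sample the mean log2 level of 10 endothelial markers was 6.59, within 6.59 to 6.66 of wild type, with Pecam1 at 68.5 and Cdh5 at 106. The 9 leukocyte markers had 6.26, within 6.23 to 6.4 of wild type. The 9 fibro-adipogenic progenitor markers had 7.43, the highest of all samples, against 6.90 to 7.08 in wild type and 7.10 to 7.38 in the rest of Hmga2 KO. Of these, 8 were above background by their mean, though Lum, at 49.1 to 60.01, lay close to it, and Dpt was not. Pdgfra gave 620 there against 133 to 383 in wild type. Smoc2 and Dcn (67.2 against 55.7 to 64.2) also lay above their wild type ranges in that sample. Lum, Osr1, Pi16, Mfap5 and Col3a1 lay within theirs and Dpt below its own. The higher mean was thus a matter of part of the list. The other markers by brightness were Col3a1 (8255 in that sample, 6483 to 8477 in wild type), and for endothelium Erg and Egfl7 (381 and 262, within 299 to 448 and near the 266 to 332 of wild type). Smoc2, named after its values were seen, gave 88.2 to 103 in wild type and 362, 510, 313 and 154 in Hmga2 KO replicates 1 to 4 (difference 1.67, adjusted p = 0.201, limma). It was higher in all 4, and highest in replicate 2, where Cd34 was lowest. The part of such cells in the Cd34 value was not tested. The 10 smooth muscle and pericyte markers ran from 9.21 to 9.48 in wild type and 9.32 to 9.49 in Hmga2 KO, and the 5 Schwann cell markers from 7.62 to 7.89 and 7.48 to 7.93. The brightest of the former were Acta2 (11882 to 15908 in wild type, 11058 to 14976 in Hmga2 KO) and Des, also a myoblast marker. The brightest of the latter were Erbb3 (3952 to 6037 and 1963 to 5436) and Ngfr (67.0 to 310.1 and 180 to 299). Other members were dim over all samples, with Myh11 at 95.1 to 124, Kcnj8 at 87.2 to 113 and Cnn1 at 34.3 to 73.1. Sox10 gave 69.9 to 86.0 and S100b 54.0 to 62.9, while Notch3 gave 2610 to 4794. Single members of the smooth muscle and pericyte list, named after their values were seen, differed in opposite directions. Rgs5 gave 949 to 6701 in wild type and 5946 to 11001 in Hmga2 KO (1.72, adjusted p = 0.295, limma), and Abcc9 gave 816 to 900 and 236 to 752, without overlap (-1.01, adjusted p = 0.295, limma).

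Itga7 and Fgfr4 followed the genes of differentiated muscle from sample to sample. The mean log2 level of 25 such genes, contractile proteins and fusion factors, was 11.43, 11.95 and 11.66 in wild type replicates 1 to 3, and 10.43, 11.58, 11.05 and 11.22 in Hmga2 KO replicates 1 to 4. Hmga2 KO replicate 2, high for Itga7 and Fgfr4, thus lay in the wild type range, and replicate 1, low for both, lay lowest. None of the 25 genes passed over all genes (smallest adjusted p = 0.212, limma). An unadjusted p under 0.05 was found for 11, all lower, where 10.3% of all genes were lower at that p. All 25 lay lower in Hmga2 KO, with a median of -0.59 where all genes had -0.07. The share of all genes that lay lower is not given. This list was chosen with earlier results of these data known, so its counts are no independent support. Mylpf, a fast myosin light chain, gave 14391 to 18536 in wild type and 7802 to 16282 in Hmga2 KO (adjusted p = 0.401, limma), and Tnnc1, a troponin, gave 11095 to 13985 and 6969 to 12514 (adjusted p = 0.388, limma). Across the 7 samples Itga7 had Pearson's r = 0.94 and Spearman's rho = 0.93 with that level, and r = 0.89 without the 2 samples farthest from its median. For Fgfr4 these were 0.89, 0.86 and 0.95. For Spry1, r was 0.71, and 0.30 without the 2 samples. The part of the level of muscle genes in the differences of Spry1, Itga7 and Fgfr4 was not tested. For Vcam1, r was 0.56 and 0.59. Among the other members, Cd34 had -0.76 and 0.28, Sdc3 0.66 and 0.29, and Met -0.024 and 0.85. Cxcr4 had 0.46 and -0.43, Sdc4 0.082 and 0.20, and Calcr, at background, 0.056 and 0.31. The correlations are given as descriptions, since the 7 points fall in 2 genotype groups and both values of a point come from the same array.

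**Figure D3:**
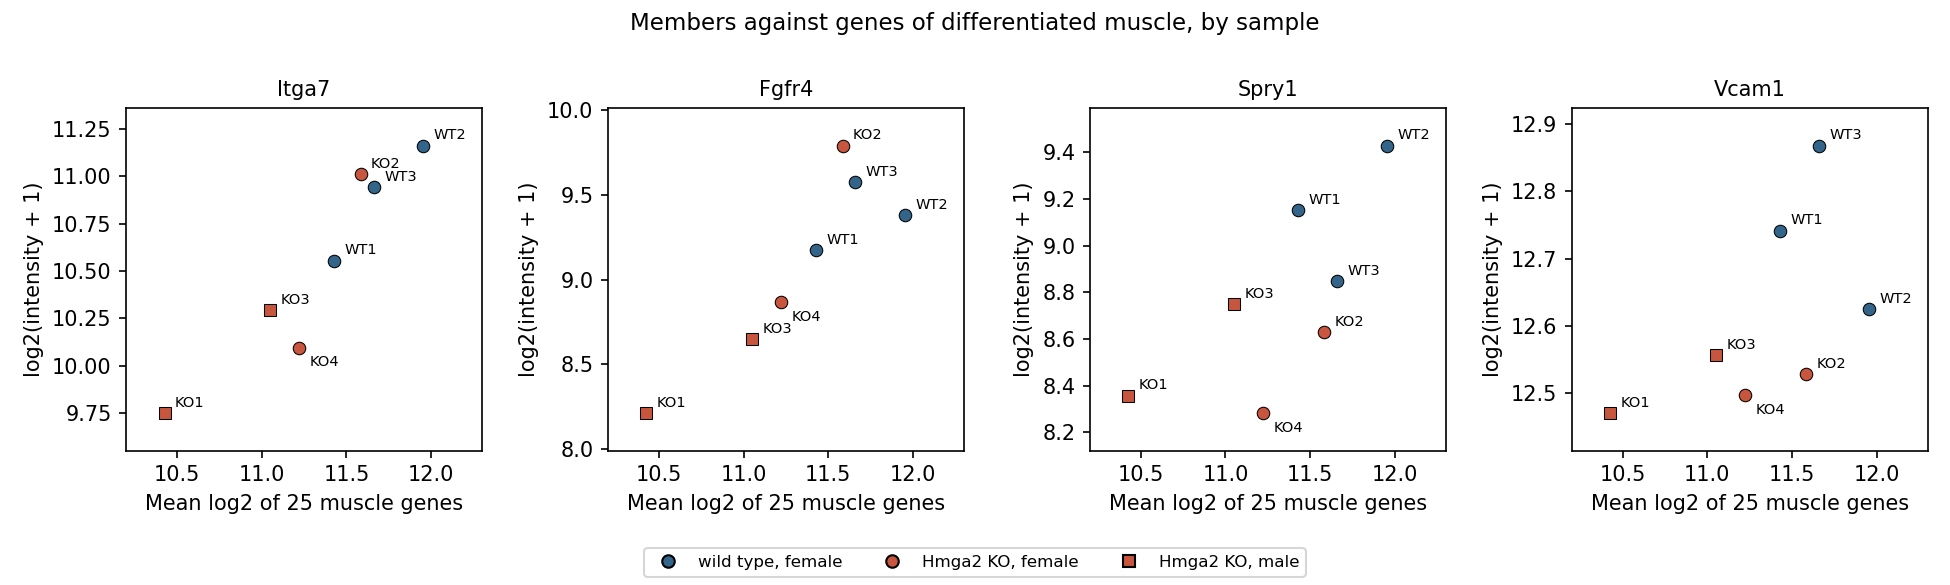
Log2(intensity + 1) of Itga7, Fgfr4, Spry1 and Vcam1 in each sample (vertical axis) against the mean log2 level of 25 genes of differentiated muscle in that sample (horizontal axis); WT is wild type, KO is Hmga2 KO, squares are male. Over the 7 samples Itga7 and Fgfr4 are higher where the muscle genes are higher, though among wild type samples Fgfr4 is highest in WT3 and the muscle genes in WT2. KO2 lies at wild type levels of muscle genes but below all wild type samples for Spry1 and for the brightest Vcam1 probe set.

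Sex was compared within the Hmga2 KO group, 2 males against 2 females. None of the 10 genes passed (0.0385% of all genes did), and 1 had an unadjusted p under 0.05, lower in males, against 6.3% of all genes, or 3.65% lower. This was Fgfr4, with mean log2 values of 8.43 in males and 9.33 in females (difference -0.90, adjusted p = 0.621, limma). Leaving out an Hmga2 KO sample leaves 1 sample of that sex, so counts from such fits are not given. Itga7 had 10.02 and 10.55 (adjusted p = 0.893, limma), and Cd34 had 7.95 and 6.68 (adjusted p = 0.826, limma), the latter through replicate 1. The muscle genes also stood lower in both male samples than in both female ones, so sex and the level of muscle genes cannot be told apart for Fgfr4 here.

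The genes most alike in pattern over the 7 samples, among 16954 genes above background, were named for the 5 members that ranged over at least 1 log2 unit. For Spry1 they were Vars, a valine tRNA ligase (r = 0.98), and Yju2, a splicing factor (r = 0.97). For Itga7 they were Ccnh (r = 0.99) and the ATP-gated channel gene P2rx5 (r = 0.99), and for Fgfr4 they were Thnsl1 and Nle1 (both r = 0.98). For Cxcr4 they were Tet2 and Hsf2 (both r = 0.98), and for Cd34 they were Slc35b2 (r = 0.99) and Pcp4 (r = 0.98), where Hmga2 KO replicate 1 sets the value. With so many genes and 7 samples, values of this size are a ranking and nothing more.

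Partner genes from lists, chosen with earlier results of these data known, showed how the rest of each pathway stood. No gene of the 5 partner lists or of the identity list passed over all genes. The background for their counts at an unadjusted p under 0.05 is 2.99% of all genes higher and 10.3% lower. Of 18 genes of FGF signalling and its feedback, 0 were higher and 1 lower at an unadjusted p under 0.05, and 9 lay on each side of 0 (median 0.011). The lower one was the decoy receptor Fgfrl1 (difference -0.47, adjusted p = 0.374, limma). Spry2, a relative of Spry1, gave 12339 to 13529 in wild type and 12093 to 14165 in Hmga2 KO, with a difference of 0.045. Fgfr1 differed by -0.12, Etv5, a transcription factor that FGF signalling induces, by 0.23 (adjusted p = 0.463, limma), and the phosphatase gene Dusp4 by -0.16. The ligand Fgf2 was dim, at 51.1 to 88.0, and differed by -0.048. Whether Spry1 differs from these genes in its change was not tested.

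Of 11 genes of the hepatocyte growth factor pathway, 1 was higher and 0 lower at an unadjusted p under 0.05 (median -0.078). This was Spint2, an inhibitor of the proteases that activate the factor, with 152 to 196 in wild type and 180 to 236 in Hmga2 KO (0.29, adjusted p = 0.374, limma). Hgf itself was dim, at 86.1 to 107. Ptpn11, a phosphatase that relays receptor signals, gave 7574 to 8027 and 6663 to 7321, without overlap (-0.16, adjusted p = 0.443, limma). Cbl, a ubiquitin ligase that turns over receptors such as Met, differed by 0.27 (adjusted p = 0.426, limma). Of 12 partners of Cxcr4 and Calcr, 1 was higher and 2 lower, the Ramp genes above (median -0.071). Cxcl12 differed by -0.13, its other receptor Ackr3 by 0.19, and Calcrl by -0.37 (adjusted p = 0.422, limma), all with overlapping groups.

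Of 15 syndecan, glypican and heparan sulfate genes, 2 were higher and 1 lower at an unadjusted p under 0.05 (median -0.0096). Ext1 and Ext2 encode the partners that lengthen the heparan sulfate chain, and they went opposite ways. Ext2 gave 657 to 923 in wild type and 499 to 588 in Hmga2 KO, without overlap (-0.47, adjusted p = 0.288, limma), and Ext1 gave 1933 to 2878 and 2665 to 4103, with overlap (0.47, adjusted p = 0.339, limma). Sulf2, which removes sulfate from the chains, gave 2107 to 2414 and 2587 to 2651, without overlap (0.24, adjusted p = 0.316, limma). Sdc1 and Sdc2 differed by -0.023 and 0.0048.

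Of 15 partners of Itga7, Vcam1 and Cd34, 1 was higher and 2 lower at an unadjusted p under 0.05 (median -0.049). Selp, P-selectin, an adhesion receptor known from platelets and endothelium, gave 793, 590 and 962 in wild type and 1706, 2786, 1213 and 1821 in Hmga2 KO. All 4 lay above every wild type sample (1.23, adjusted p = 0.223, limma). The mean log2 level of the endothelial markers was 6.51 to 6.59 in Hmga2 KO and 6.59 to 6.66 in wild type, and the part of endothelial cells in the Selp values was not tested. Podxl, a relative of Cd34, differed by -0.52 (adjusted p = 0.337, limma) and Itga3 by -0.46 (adjusted p = 0.372, limma). Itgb1, the partner chain of Itga7, differed by -0.049. Itga4, a chain of the Vcam1 receptor, gave 254 in Hmga2 KO replicate 1 against 698 to 1082 in the other 3 and 732 to 1034 in wild type. Among 17 other identity genes, 0 were higher and 2 lower, with -0.57 for Lrig1, an inhibitor of growth factor receptors (386 to 569 in Hmga2 KO against 638 to 692, adjusted p = 0.245, limma), and -1.14 for Cav1, the caveolae protein (1485 to 2818 against 2207 to 6625, adjusted p = 0.293, limma). The difference of Des, the muscle intermediate filament, was -0.33 (adjusted p = 0.413, limma).

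**Figure D4:**
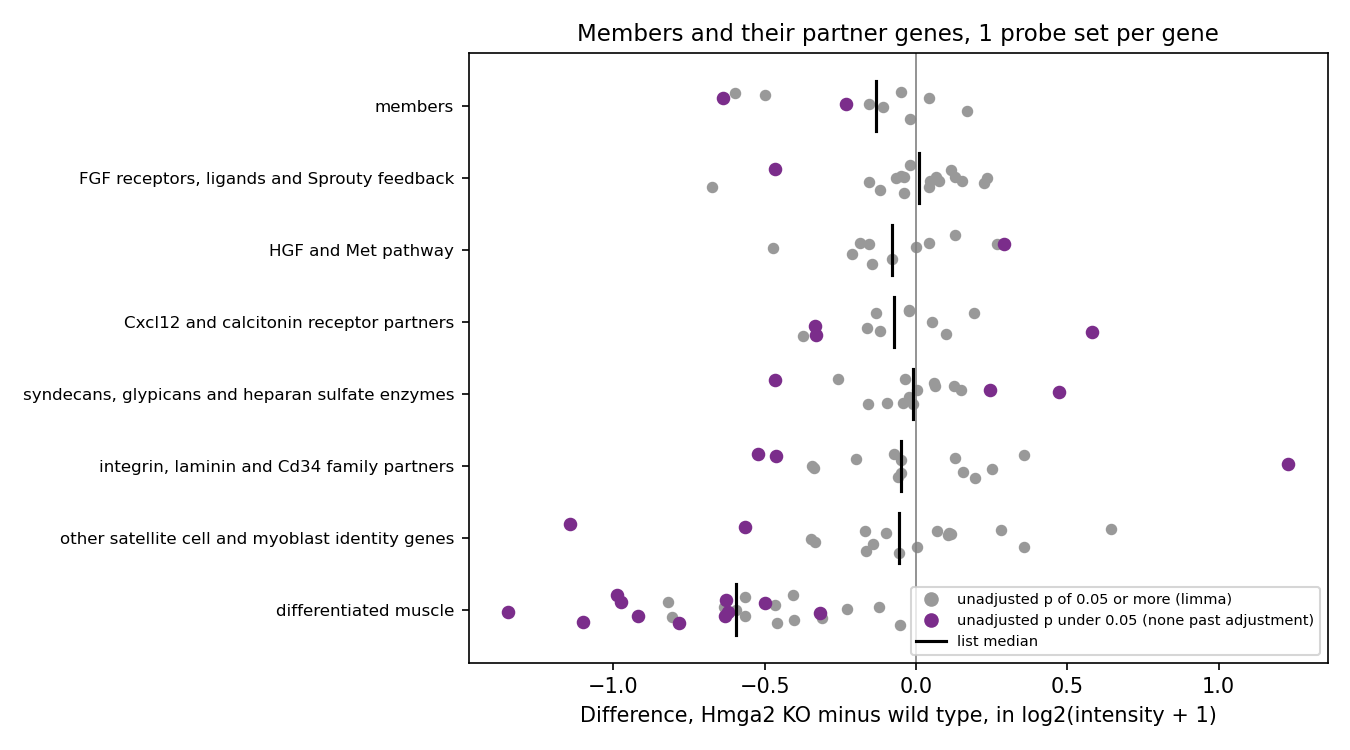
Difference between Hmga2 KO and wild type in log2(intensity + 1) for each gene of 8 lists, 1 point per gene on its brightest probe set; purple points have an unadjusted p under 0.05 (limma), black bars are list medians, and the vertical scatter within a row has no meaning. The partner lists scatter around 0, the 25 genes of differentiated muscle all lie below it, and no point passes the adjusted threshold.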

How the data were processed

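Per the labels' protocols, total RNA of 7 myoblast samples was turned into biotinylated cRNA and put on Affymetrix arrays. The authors deposited probe set intensities on a linear scale for 45101 probe sets, 1 column per sample, each with a median of 150, so the arrays had been scaled. How probes were summarized and background was corrected is not given in the sources used. The lowest value per array was 33.2 to 36.7, and such a floor understates folds of dim genes. The number of arrays limits the precision.

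Here intensities were taken to log2(intensity + 1) with no further normalization. Probe sets were named through the platform table. Of them 34945 had 1 gene, 932 several and 9160 none, besides 64 controls, and 34741 gene identifiers matched RefSeq genes of GRCm38.p6. Each gene was represented by its brightest probe set, and all probe sets were fitted as well. Groups follow the titles. Tests used limma 3.58.1 (lmFit, eBayes; R 4.3.3) without covariates, adjusted over all genes or all probe sets at 0.05, and exact permutation over 35 splits. Sexes were compared in a 3-group fit.

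The members and lists were chosen with earlier results of these data known. Partner genes are named by rule: the 3 smallest p of each partner list and direct ligands or partners, the brightest 2 of the differentiated muscle and cell type marker lists, fixed myoblast markers, and the 2 genes most like each varying member. Other markers were named because they define a cell type or, where so stated, after their values were seen. In 5 simulations of the genotype comparison on 18193 genes with 200 changed, the test found 41.8% of genes set to differ 1.5-fold, 77.6% of those at 2-fold and 97% of those at 4-fold, with 4.34% false calls. On 34945 probe sets these shares were 29.6%, 69% and 96.1%, and for the sexes on 18193 genes 5.97%, 55.2% and 92.1%. The changed genes were drawn from outside the dimmest 40%, and the noise was independent between genes. In the data only 5 genes passed between the genotypes, so these shares can overstate what the test finds there. Alternatives tried were females alone, sex as a covariate, a replicate block, leaving out each sample, quantile normalization, leaving out the dimmest 40%, a pseudocount of 16, a trended and robust prior, array weights and the mean of a gene's probe sets.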

Additional observations from a re-analysis of the deposited data

Results flagged for a closer look

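Cd34 stood out in Hmga2 KO replicate 1, at an intensity of 527.1 against 93.8 to 114 in the other 3 Hmga2 KO samples. The gap to the nearest of these made up 0.887 of the range of the group on the log2 scale, above Dixon's 95% critical value of 0.829 for 4 samples. Of 20 probe sets examined in this way, 1 was beyond that value, and chance alone gives about 1 in 20.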

How the results depend on the processing

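By limma none of the 10 genes passed the adjusted threshold under the 15 or 16 alternatives run for each, and none of the 20 probe sets under the 14 or 15 run for each. None of the genes passed in the comparison of the sexes under its 11 alternatives. Spry1, Vcam1, Itga7, Fgfr4 and the brightest probe sets of Met and Sdc3 kept their direction in all that were run. The count over all genes was 5, and 2 to 17 when 1 sample was left out; over all probe sets it was 7, and 4 to 22. The highest counts came without Hmga2 KO replicate 2 and the lowest without wild type replicate 3. For male against female Hmga2 KO it was 7, and 3 without the dimmest 40%. With the replicate number as a block the counts were 99 genes and 105 probe sets, none of them members. Deviations of same-numbered samples correlated at 0.31, 0.37 and -0.18, and those of differently numbered samples at -0.40 to 0.18. These values do not settle whether same-numbered samples form pairs. The cause of these shifts was not tested. Directions reversed in 37 values of the members, with no adjusted p under 0.428. In females alone and with sex as a covariate Cd34 turned from 0.17 to -0.46, and 3 of the dimmer Fgfr4 probe sets turned from below 0 to 0.098, 0.054 and 0.013. Array weights gave -0.044 for Cd34 (-0.057 in the fit of all probe sets), -0.043 for the dimmer Met probe set and -0.026 for the dimmest Sdc3 probe set, which the replicate block put at -0.048. Quantile normalization gave 0.025 for Sdc4. Leaving out 1 sample gave -0.084 to 0.012 for Calcr, -0.41 to 0.42 for Cd34 and -0.097 to 0.24 for Cxcr4. It gave -0.44 to 0.49 for the dimmer Met probe set, -0.056 to 0.11 and -0.043 to 0.19 for the dimmer Sdc3 probe sets, and -0.070 to 0.027 for Sdc4. Calcr, at background, limits what can be said of it.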
